A study of Mus musculus with 14 samples.

Results

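The genes described here are 9 components of heterotrimeric G protein signalling in germinal centre (GC) B cells. They were taken by gene symbol and not by a cut on their values, though earlier results of these data were known. They are 5 regulators of G protein signalling (Rgs1, Rgs2, Rgs10, Rgs13 and Rgs19), the inhibitory alpha subunits Gnai2 and Gnai3, the alpha subunit Gna13 and the exchange factor Arhgef1. All 9 had a row among the 9969 genes of the deposited table of unique molecular identifiers (UMIs, which count captured transcripts). Of these, 8 passed the filter on low counts, as did 7999 genes in all, and Rgs2 did not.

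The libraries came from B cells sorted by zone from the popliteal lymph nodes of C57BL/6 chimeric mice, made with 50% WT and 50% SykY317F cells, at day 14 after immunization with NP-KLH, a hapten coupled to a carrier protein. There were 3 SykY317F light zone (LZ), 3 SykY317F dark zone (DZ), 4 WT LZ and 4 WT DZ libraries. Syk is the kinase that passes on the signal of the B cell antigen receptor, and in SykY317F a tyrosine of this kinase is replaced by phenylalanine. Because all mice were chimeras, cells of both genotypes had the same kind of host, and no label says which mouse each library came from, so the p-values measure the spread between these libraries, which may be technical.

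Chemokine receptors such as CXCR4 and CXCR5 couple to Gαi proteins, and the RGS proteins act as brakes by speeding the hydrolysis of GTP on the alpha subunit, which ends the signal. Gα13 works in the other direction for migration: receptors such as S1PR2 activate it, Arhgef1 (p115RhoGEF) links it to the GTPase RhoA, and in mice this route keeps B cells inside the GC and limits their growth. GC B cells differ from resting B cells in having high RGS13 in human and mouse tissue. In a GC, the DZ is the site of division and the LZ the site where B cells meet antigen and T cell help, and CXCR4 holds cells in the DZ.

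No tested member passed an adjusted p of 0.05 (edgeR) in any of 7 comparisons of zone and genotype. The comparison with the most calls, LZ over DZ averaged over genotypes, called 0 of 8 members and 114 of 7999 genes, or 1.43%. Gnai2, Arhgef1, Rgs10 and Rgs19 differed by 1.98-fold to 2.53-fold between the lowest and the highest of the 14 libraries. Gna13 differed by 6.27-fold, Gnai3 by 13.3-fold and Rgs1 by 62.9-fold, and Rgs13 lay between 0 and 107 CPM (UMIs per 1000000 UMIs of the library, scaled by TMM factors). Rgs19 and Rgs10 were the members with unadjusted p-values under 0.05 between zones averaged over genotypes, both on the lower side in LZ.

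The genes lie at these places in GRCm38, the assembly of mm10, and all are annotated as protein-coding. Rgs2 (chr1:143999338-144004161), Rgs13 (chr1:144138654-144177372) and Rgs1 (chr1:144242296-144249242) are neighbours on the minus strand of chromosome 1. Rgs10 (chr7:128373621-128418758), Rgs19 (chr2:181688419-181693977), Gnai2 (chr9:107614125-107635367) and Gnai3 (chr3:108107280-108146146) are also on the minus strand. Gna13 (chr11:109362831-109401369) and Arhgef1 (chr7:24902912-24926594) are on the plus strand. The antisense gene Gm11696 overlaps Gna13, and without a stated strand setting of the counting their reads cannot be told apart, while Gm15503 overlaps Rgs10 and Gm19721 overlaps Gnai2 on the same strand.

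Promoter sequences were available for 7 of the 9 members, with 10 start sites, from RefSeq on GRCm38.p6. Of these, 3 are shown, each as the 250 bases before the start, 5′ to 3′ on the strand of the gene, since Rgs13 and Gnai3 were among the least steady members and Rgs19 among the steadiest. Capitals mark CG dinucleotides.
Rgs13 (chr1:144177373-144177622, minus strand): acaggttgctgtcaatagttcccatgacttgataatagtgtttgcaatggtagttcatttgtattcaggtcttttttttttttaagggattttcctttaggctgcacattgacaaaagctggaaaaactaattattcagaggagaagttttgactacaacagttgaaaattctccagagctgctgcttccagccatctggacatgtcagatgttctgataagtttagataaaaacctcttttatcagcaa
Gnai3 (chr3:108146153-108146402, minus strand): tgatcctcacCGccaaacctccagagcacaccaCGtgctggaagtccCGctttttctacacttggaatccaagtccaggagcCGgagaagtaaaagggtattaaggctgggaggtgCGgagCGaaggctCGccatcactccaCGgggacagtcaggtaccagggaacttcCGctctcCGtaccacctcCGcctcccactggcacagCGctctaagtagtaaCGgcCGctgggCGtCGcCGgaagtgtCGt
Rgs19, first of 3 starts (chr2:181693978-181694227, minus strand): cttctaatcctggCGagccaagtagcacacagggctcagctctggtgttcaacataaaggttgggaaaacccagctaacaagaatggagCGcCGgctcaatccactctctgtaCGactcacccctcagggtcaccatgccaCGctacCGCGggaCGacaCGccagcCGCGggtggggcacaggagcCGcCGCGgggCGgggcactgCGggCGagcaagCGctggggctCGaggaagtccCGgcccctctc
The Rgs13 window was 36.0% G and C with 0 CG dinucleotides. The Gnai3 window was 59.6% with 18, and the Rgs19 window 64.8% with 20. Over 32851 promoters of the same length the median was 52.4% with 6 CG dinucleotides, and 92.1% held at least 1. The window of Rgs13 was the only one of the 10 windows of the members with none. The GC box GGGCGG, searched on both strands, was absent from the Rgs13 and Gnai3 windows and occurred 1 time in the Rgs19 window shown. It occurred 2 times at the second start of Rgs19 and 0 times at the third, and 32.7% of all promoters held it. The octamer ATGCAAAT, searched on both strands, matched none of the 10 windows, against 1.6% of all promoters. These matches describe the letters of the windows, and binding was not measured.

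The libraries held 149641 to 1767898 UMIs. The SykY317F LZ libraries were the shallowest as a group, with 379125, 201881 and 149641 UMIs in replicates 1, 2 and 4, and gave 9.37 to 15.8 UMIs per 100 reads. SykY317F DZ replicate 4 gave 15.6, and the other 10 libraries 33.5 to 53.2. A count of 3 UMIs, the limit that a count of 0 allows, therefore equals 8.95 to 18.8 CPM in SykY317F LZ but 1.73 to 5.76 CPM in WT LZ. Intervals and limits from counts cover counting error only. The labelled zones were checked against markers, first for LZ over DZ averaged over genotypes, where 1.43% of all tested genes passed. All 9 LZ markers were on the higher side in LZ and 3 passed. Of 6 tested DZ markers, 5 were on the lower side, of which 3 passed, and 1 was on the higher side. Within WT, 9 of 9 LZ markers were higher and 5 of 6 DZ markers lower in LZ, with 1 of each passing. Within SykY317F these were 7 of 9 and 4 of 6, and none passed. The summed level of 12 GC B cell markers was 8112 to 9757 CPM in SykY317F LZ, 8430 to 9731 CPM in SykY317F DZ, 6732 to 9077 CPM in WT LZ and 9632 to 12574 CPM in WT DZ, with Gcnt3 at 0 in SykY317F LZ.

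Rgs19, a GTPase activator for Gαi proteins also known as GAIP, had 182, 203 and 194 CPM in SykY317F LZ replicates 1, 2 and 4, against 352, 266 and 268 CPM in the SykY317F DZ replicates of the same numbers. In WT LZ replicates 1, 2, 3 and 5 it had 207, 195, 255 and 278 CPM, against 214, 279, 303 and 387 CPM in WT DZ replicates 2, 3, 4 and 5. Every SykY317F LZ library lay below every SykY317F DZ library, whereas the WT zones overlapped. On the log2 scale the fold change of LZ over DZ was -0.62 ± 0.26 (SE) in SykY317F and -0.34 ± 0.21 in WT, where it was -0.16 without WT DZ replicate 5. Averaged over genotypes it was -0.48 ± 0.17, with a 95% interval of -0.83 to -0.13. By edgeR's quasi-likelihood test the unadjusted p was 0.00983 and the Benjamini-Hochberg adjusted p 0.174, so Rgs19 did not pass. Over 23 other ways of processing the value ranged from -0.55 to -0.37 and its adjusted p from 0.108 to 0.390.

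Rgs10, a small RGS protein that acts on Gαi family subunits, had 95.5, 67.7 and 113 CPM in SykY317F LZ, against 121, 90.8 and 130 CPM in SykY317F DZ. It had 68.0, 88.0, 88.3 and 102 CPM in WT LZ, against 104, 129, 113 and 149 CPM in WT DZ. The SykY317F zones overlapped, while the highest WT LZ library lay just under the lowest WT DZ library. LZ over DZ gave a log2 fold change of -0.52 ± 0.22 in WT (unadjusted p = 0.0312, adjusted p = 0.519, edgeR) and -0.29 ± 0.29 in SykY317F, where, with 1 library left out at a time, it ranged from -0.45 (without SykY317F DZ replicate 2) to -0.18 (SykY317F LZ replicate 2 left out). Averaged over genotypes it was -0.41 ± 0.18, with an interval of -0.78 to -0.03 and an adjusted p of 0.310 (edgeR). Over the 23 other ways of processing it ranged from -0.48 to -0.27, with an adjusted p of 0.224 to 0.617.

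Non-overlap of this kind was common across the table. In SykY317F, 8.5% of the 7999 tested genes had all LZ libraries below all DZ libraries, and 2 of the 8 members did (Rgs19 and Gnai3). In WT, 2.88% of tested genes did so, and 1 member did (Rgs10). Averaged over genotypes, markers of 2 other cell types also stood lower in LZ. The summed level of 5 plasma cell markers was 1344 to 1436 CPM in SykY317F LZ against 1910 to 2485 CPM in SykY317F DZ, and 1281 to 1594 CPM in WT LZ against 2127 to 2789 CPM in WT DZ, with Sdc1 at 0 in SykY317F LZ. These sums did not overlap between zones in either genotype, and averaged over genotypes 3 of 4 tested markers were on the lower side in LZ, of which Mzb1 passed (log2 fold change -0.77 ± 0.19, adjusted p = 0.0414, edgeR). The summed level of 10 macrophage and myeloid markers was 215 to 251 CPM in SykY317F LZ, 431 to 730 CPM in SykY317F DZ, 194 to 369 CPM in WT LZ and 286 to 563 CPM in WT DZ, so that it overlapped between the WT zones. Averaged over genotypes, 8 of 8 tested myeloid markers were on the lower side in LZ with none passing, and none of the 10 was at 0 in a whole group. Of all tested genes, 53.7% were on that side and 1.43% passed in either direction. Within SykY317F 8 of 8 myeloid markers were lower in LZ (median log2 fold change -2.32), and within WT 5 of 8 (median -0.26). Of 5 tested T cell markers, 5 were lower in LZ in SykY317F, while in WT 1 was lower and 4 were higher. Of 11 tested GC B cell markers, 7 were on the lower side in LZ and 2 passed there, averaged over genotypes. Of 9 tested naive and memory B cell markers, 5 were on the higher side and 2 passed there. The naive and memory sum was 2168 to 2203 CPM in SykY317F LZ against 1396 to 1855 CPM in SykY317F DZ. It was 1242 to 2065 CPM in WT LZ against 1043 to 1434 CPM in WT DZ. The part of any of these lists in the values of Rgs19 and Rgs10 was not tested. In bulk libraries, fewer cells of a type and less RNA per cell cannot be told apart.

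**Figure D1:**
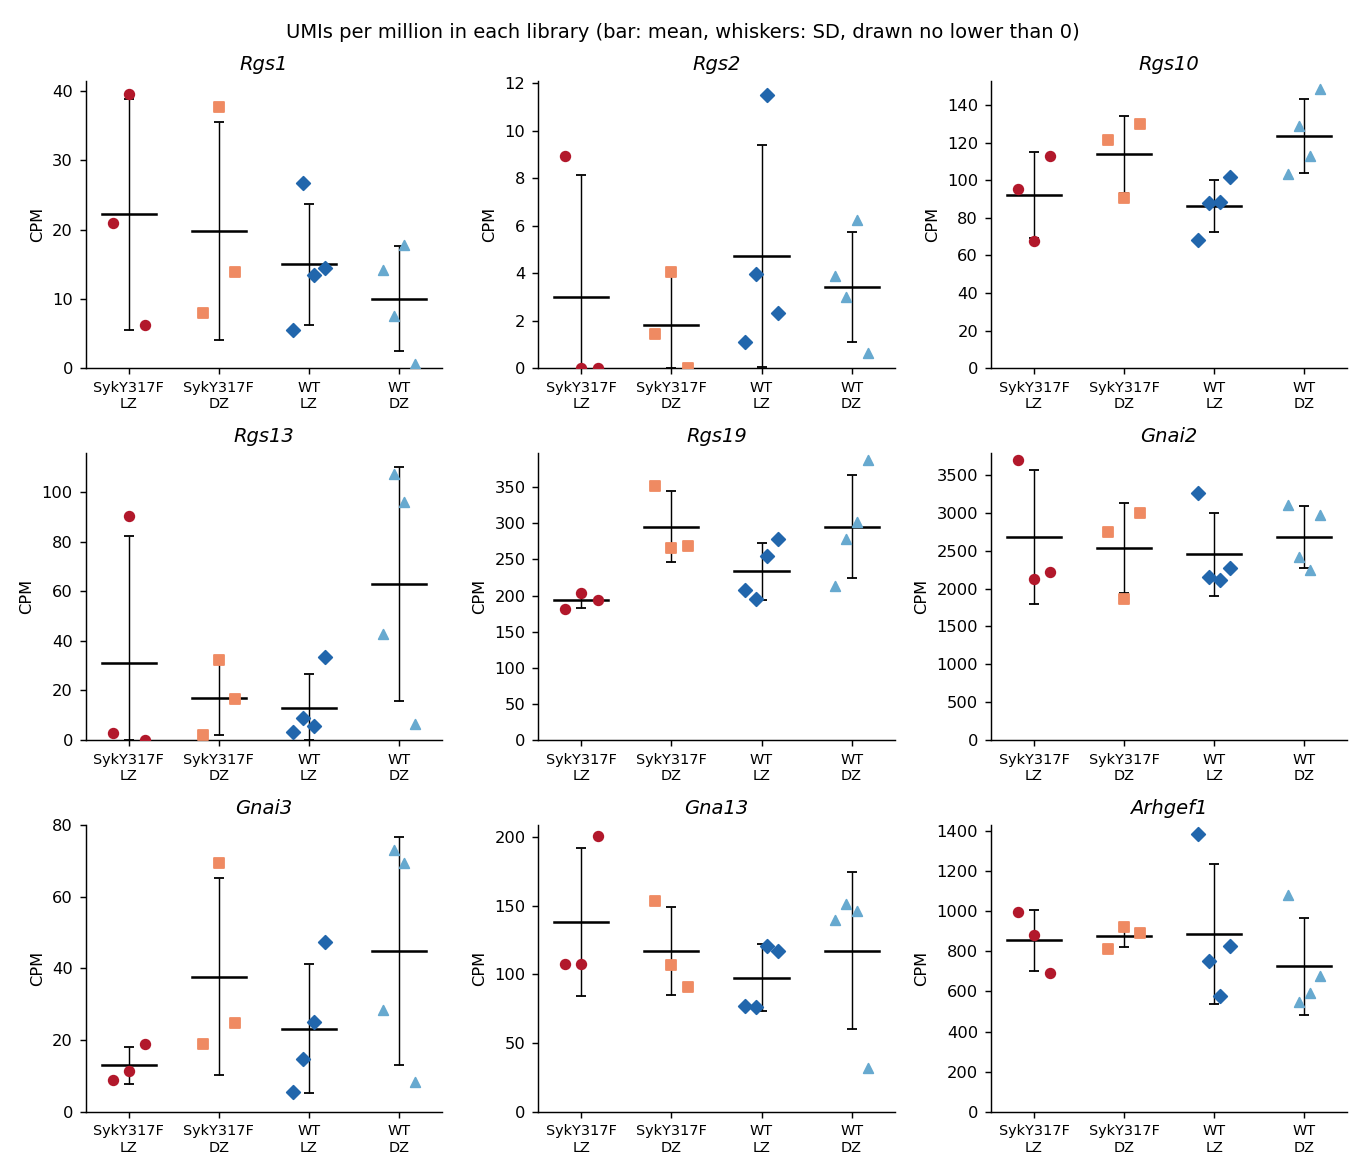
Level of each member in every library in CPM (vertical axis, linear from 0) for SykY317F LZ, SykY317F DZ, WT LZ and WT DZ; points are libraries, bars are means and whiskers are the SD. Rgs10, Rgs19, Gnai2 and Arhgef1 differ by at most 2.53-fold over all libraries, while single libraries set the means of Rgs13, such as SykY317F LZ replicate 2 at 90.3 CPM.

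Rgs13, an RGS protein typical of GC B cells, was the least steady member. It had 2.98, 90.3 and 0 CPM in SykY317F LZ replicates 1, 2 and 4, which are 1, 16 and 0 UMIs, and the count of 0 allows up to 18.8 CPM. In SykY317F DZ it had 2.18, 32.3 and 16.6 CPM. In WT LZ it had 3.29, 8.90, 5.76 and 33.5 CPM, against 42.7, 107, 96.1 and 6.28 CPM in WT DZ. Of the WT DZ libraries 3 lay above every WT LZ library, and WT DZ replicate 5 lay among the WT LZ libraries. The group means were 31.1 ± 51.3 CPM in SykY317F LZ and 17.0 ± 15.1 CPM in SykY317F DZ (SD, n = 3 each), and 12.9 ± 13.9 CPM in WT LZ and 63.1 ± 47.2 CPM in WT DZ (SD, n = 4 each).

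For Rgs13 the log2 fold change of LZ over DZ was -2.12 ± 1.06 in WT (interval -4.45 to 0.20, adjusted p = 0.628, edgeR) and 0.71 ± 1.53 in SykY317F (interval -2.64 to 4.05). Leaving out 1 library at a time, the value in WT ranged from -3.35 (without WT LZ replicate 5) to -1.74 (without WT DZ replicate 3). With each library's trend with GC content removed it was -1.41 ± 0.67. By another tool, limma voom, the value in WT was -2.73 ± 0.81 (adjusted p = 0.0666, limma voom). The value in SykY317F rested on a single library: without SykY317F LZ replicate 2 it was -3.06. The test of the difference between both zone effects, SykY317F minus WT, gave 2.83 ± 1.89 (adjusted p = 0.999, edgeR), and -0.93 without that library. The biological coefficient of variation of Rgs13, the spread between libraries of a group beyond counting error, was 110%, higher than in 99.7% of tested genes, against a common value of 32.3%. In WT the 95% interval thus ran from a fold of 0.0458 to one of 1.15, and a direction in SykY317F was not detectable with these libraries.

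Rgs1, which restrains responses of B cells to chemokines, had 20.9, 39.5 and 6.27 CPM in SykY317F LZ and 7.99, 37.7 and 13.8 CPM in SykY317F DZ. It had 5.49, 26.7, 13.4 and 14.4 CPM in WT LZ and 14.2, 7.46, 17.8 and 0.628 CPM in WT DZ. All 4 groups overlapped, and 1 UMI stood behind the value of SykY317F LZ replicate 4 and 1 behind that of WT DZ replicate 5. Averaged over genotypes the log2 fold change of LZ over DZ was 0.38 ± 0.56. That of SykY317F over WT averaged over zones was 0.83 ± 0.56, a fold of 1.77 with an interval of 0.786 to 4.01 (adjusted p = 0.659, edgeR). Single libraries moved both values of Rgs1. The LZ over DZ value ranged from 0.10 (SykY317F LZ replicate 2 left out) to 0.89 (SykY317F DZ replicate 2 left out), and the SykY317F over WT value from 0.31 (SykY317F DZ replicate 2 left out) to 1.07 (WT DZ replicate 4 left out).

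Rgs2, which acts mainly on Gαq, was near the limit of detection. It had 3, 0 and 0 UMIs in SykY317F LZ, 2, 6 and 0 UMIs in SykY317F DZ, 1, 4, 6 and 4 UMIs in WT LZ, and 3, 4, 7 and 1 UMIs in WT DZ. Summed over libraries these are 4.47 CPM in SykY317F LZ (exact Poisson 95% interval 0.921 to 13.1), 2.48 in SykY317F DZ (1.07 to 4.89), 3.59 in WT LZ (2.01 to 5.92) and 3.11 in WT DZ (1.74 to 5.12). All 4 intervals overlapped, and a difference in Rgs2 was not detectable at this depth.

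Gnai2, the Gαi subunit on which lymphocyte migration to chemokines mainly depends, had 3701, 2122 and 2214 CPM in SykY317F LZ and 2744, 1867 and 2996 CPM in SykY317F DZ. It had 3266, 2152, 2115 and 2279 CPM in WT LZ and 3101, 2419, 2250 and 2970 CPM in WT DZ. The groups overlapped throughout. Gnai2 had 353 to 4730 UMIs per library, so counting error is small beside the spread between libraries, and its intervals are narrow: the log2 fold change of LZ over DZ averaged over genotypes was -0.02 ± 0.19 (interval -0.41 to 0.36), and that of SykY317F over WT averaged over zones was 0.02 ± 0.19 (interval -0.37 to 0.41). Differences of 2-fold lie outside both intervals.

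Gnai3, a second inhibitory alpha subunit, had 8.95, 11.3 and 18.8 CPM in SykY317F LZ, against 18.9, 69.3 and 24.9 CPM in SykY317F DZ. It had 5.49, 14.8, 24.95 and 47.3 CPM in WT LZ, against 28.5, 73.1, 69.4 and 8.16 CPM in WT DZ. The SykY317F zones did not overlap, but each SykY317F LZ value stood on 2 or 3 UMIs, and the highest of them lay just under the lowest SykY317F DZ value. For LZ over DZ the log2 fold change was -1.67 ± 1.07 in SykY317F, -0.90 ± 0.66 in WT and -1.29 ± 0.63 averaged over genotypes (interval -2.63 to 0.06, adjusted p = 0.371, edgeR). Leaving out 1 library at a time, the value of Gnai3 in SykY317F ranged from -2.03 (without SykY317F DZ replicate 1) to -0.80 (without SykY317F DZ replicate 2). In WT it ranged from -1.64 (without WT LZ replicate 5) to -0.55 (without WT DZ replicate 3), and averaged over genotypes from -1.65 (without WT LZ replicate 5) to -0.85 (without SykY317F DZ replicate 2).

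Gna13, which couples S1PR2 to RhoA, had 107, 107 and 201 CPM in SykY317F LZ and 153, 107 and 91.2 CPM in SykY317F DZ. It had 76.8, 76.1, 121 and 117 CPM in WT LZ and 140, 151, 146 and 32.0 CPM in WT DZ. As for Rgs13, 3 WT DZ libraries lay above every WT LZ library, and WT DZ replicate 5 lay below all other libraries. LZ over DZ had a log2 fold change of 0.19 ± 0.46 in SykY317F, -0.26 ± 0.37 in WT and -0.03 ± 0.30 averaged over genotypes (interval -0.65 to 0.59). Without SykY317F LZ replicate 4 the value of Gna13 in SykY317F was -0.16, and without WT DZ replicate 5 that in WT was -0.56.

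Arhgef1 had 994, 881 and 690 CPM in SykY317F LZ and 814, 921 and 890 CPM in SykY317F DZ. It had 1387, 753, 578 and 827 CPM in WT LZ and 1081, 548, 594 and 679 CPM in WT DZ. Group means were 855 ± 154 CPM in SykY317F LZ and 875 ± 55.1 CPM in SykY317F DZ (SD, n = 3 each), and 886 ± 350 CPM in WT LZ and 726 ± 243 CPM in WT DZ (SD, n = 4 each). The groups overlapped. Averaged over genotypes, the log2 fold change of LZ over DZ was 0.13 ± 0.20 (interval -0.29 to 0.56), and that of SykY317F over WT averaged over zones was 0.11 ± 0.20 (interval -0.31 to 0.54).

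**Figure D2:**
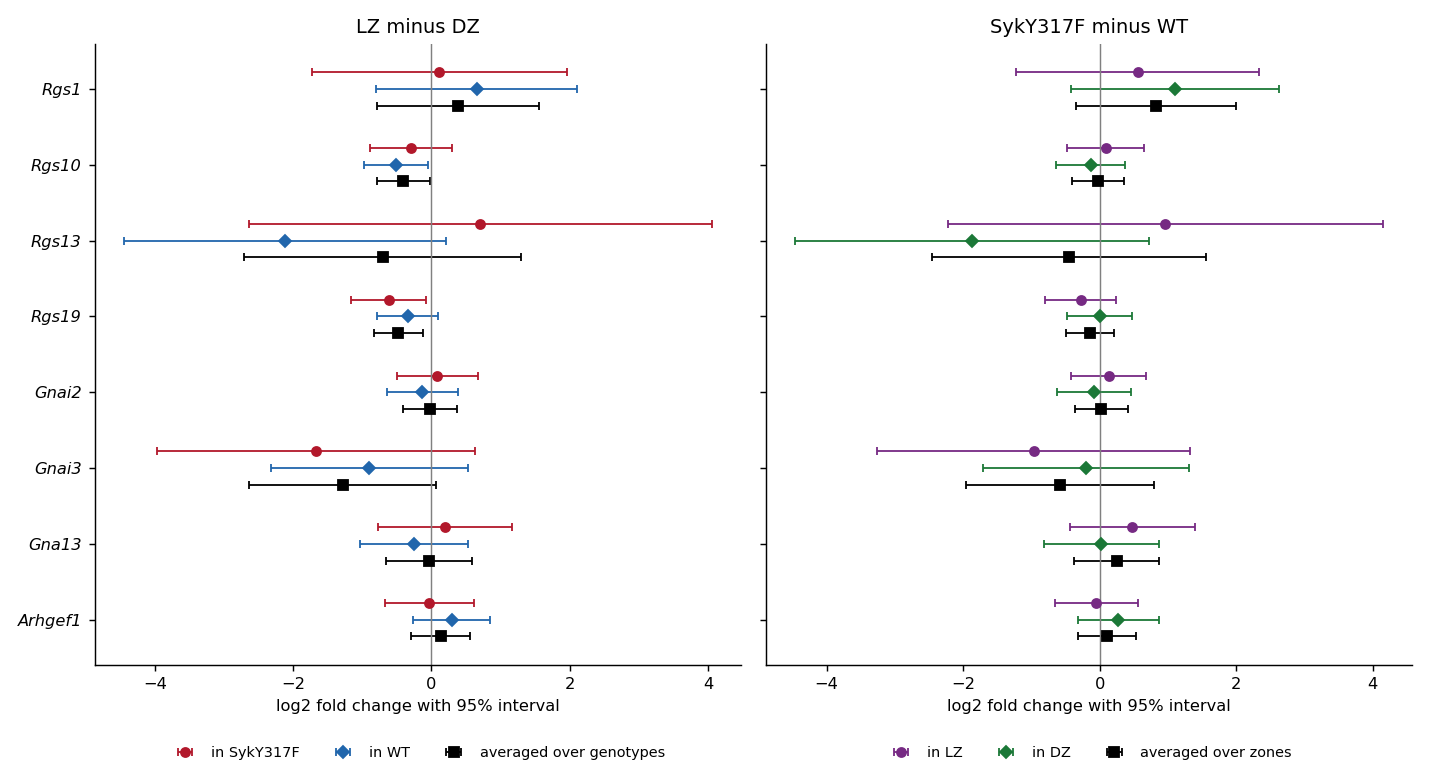
Log2 fold change of the 8 tested members with 95% intervals, for LZ minus DZ (left) and SykY317F minus WT (right), within each genotype or zone and averaged (squares). The intervals of Gnai2, Arhgef1, Rgs10 and Rgs19 are narrow around values from -0.62 to 0.29, whereas that of Rgs13 for LZ minus DZ in SykY317F reaches from -2.64 to 4.05.

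Across the members, LZ over DZ averaged over genotypes put 2 of 8 at an unadjusted p under 0.05, against 14.3% of genes. Of the 8, 2 were on the higher side and 6 on the lower side in LZ, a side that held 53.7% of all genes. The median log2 fold change of the members was -0.22, against -0.03 over all tested genes. Within SykY317F 0 members were called, against 0.0375% of genes, and 1 stood at an unadjusted p under 0.05, against 10.3%. Within WT 0 members were called, against 0.188% of genes, and 1 stood at that unadjusted level, against 8.48%.

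For SykY317F over WT, 0 members and 0% of genes were called in LZ, in DZ and averaged over zones, with 0 members at an unadjusted p under 0.05 in each. At that unadjusted level stood 9.81% of genes in LZ, 3.81% in DZ and 10.1% averaged over zones. The median log2 fold change of the members was 0.11 in LZ and -0.04 in DZ, against -0.06 and -0.04 over all tested genes. The test of the difference between the zone effects of both genotypes also called 0 members and 0% of genes, with 0 members and 4.8% of genes at that unadjusted level. Both DESeq2 (Wald test) and limma voom called 0 members in every comparison as well. Of all genes DESeq2 called 43 in LZ, 2 in DZ and 47 averaged over zones, and limma voom called 0, 0 and 7. These counts of genes depended on the tool.

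A p above the threshold does not show that a gene was equal between groups, so the widths of the intervals matter. For SykY317F over WT averaged over zones, 5 of the 8 members had an interval wholly within 2-fold in either direction, as had 57.6% of all tested genes. Those were Rgs10, Rgs19, Gnai2, Gna13 and Arhgef1. For the difference between zone effects 3 of 8 did, against 12.1% of genes. In the authors' deposited table, which compares all 6 pairs of groups, 0 members had an adjusted p under 0.05. Few genes did: from 18 of 9969 for SykY317F DZ against WT DZ to 298 for SykY317F LZ against WT DZ. The smallest adjusted p of a member there was 0.190, for SykY317F LZ against WT DZ.

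The levels of Gnai3 and Rgs13 moved with a property of the library that had no part in the choice of the members. The balance between genes of low and high GC content was computed for each library as the mean log2 deviation of the 772 tested genes with the lowest transcript GC (up to 41.9%) minus that of the 772 with the highest (from 57.9%), without the members. It was -0.66, -0.11 and 0.04 in SykY317F LZ, -0.31, 0.74 and -0.10 in SykY317F DZ, -1.12, -0.33, -0.24 and 0.61 in WT LZ, and 0.11, 1.06, 1.12 and -0.79 in WT DZ. The WT DZ libraries alone thus spanned -0.79 to 1.12. WT DZ replicates 3 and 4, highest in this balance, held the highest levels of Rgs13 and Gnai3, and WT DZ replicate 5, low in it, held the lowest level of Gna13 and of Rgs1.

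Over the 14 libraries the log2 level of Gnai3, whose transcript is 41.7% G and C, rose with the balance, with Pearson's r = 0.959 and Spearman's rho = 0.925. The permutation p of each was 1e-05, the smallest that 100000 permutations can give, and 8e-05 after adjustment over the 8 relations computed. Without the 2 libraries farthest from the median, r was 0.940, and after removal of group means 0.982. The relation was thus present within groups. The transcripts of Gnai3, Rgs13 and Rgs1 (35.9% G and C) lie within the GC range of the low-GC genes behind the balance. Of these, Rgs1 had r = 0.351 (permutation p = 0.222, adjusted 0.296). Only the 8 tested members were examined in this way, so the relation cannot be called particular to Gnai3 or Rgs13. LZ and DZ libraries may share mice, which these p-values do not take into account.

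For Rgs13, 34.4% G and C, r was 0.720 (permutation p = 0.00401, adjusted 0.0160) and rho 0.679 (permutation p = 0.00954, adjusted 0.0382), with r = 0.536 without the 2 farthest libraries and 0.668 after removal of group means. The other 6 members did not pass after this adjustment. Their r ranged from -0.584 for Gnai2 (permutation p = 0.0289, adjusted 0.0752), 56.7% G and C, to 0.552 for Gna13 (permutation p = 0.0376, adjusted 0.0752), 46.4% G and C. Rgs10 and Rgs19, near the middle in GC content at 50.7% and 52.5%, had r = 0.258 (permutation p = 0.375, adjusted 0.429) and r = 0.228 (permutation p = 0.431, adjusted 0.431). After removal of group means, r was -0.724 for Gnai2, 0.670 for Gna13, 0.588 for Rgs1 and -0.455 for Arhgef1. For Rgs10 and Rgs19 it was then -0.046 and -0.061. No test was made of the values after removal of group means.

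**Figure D3:**
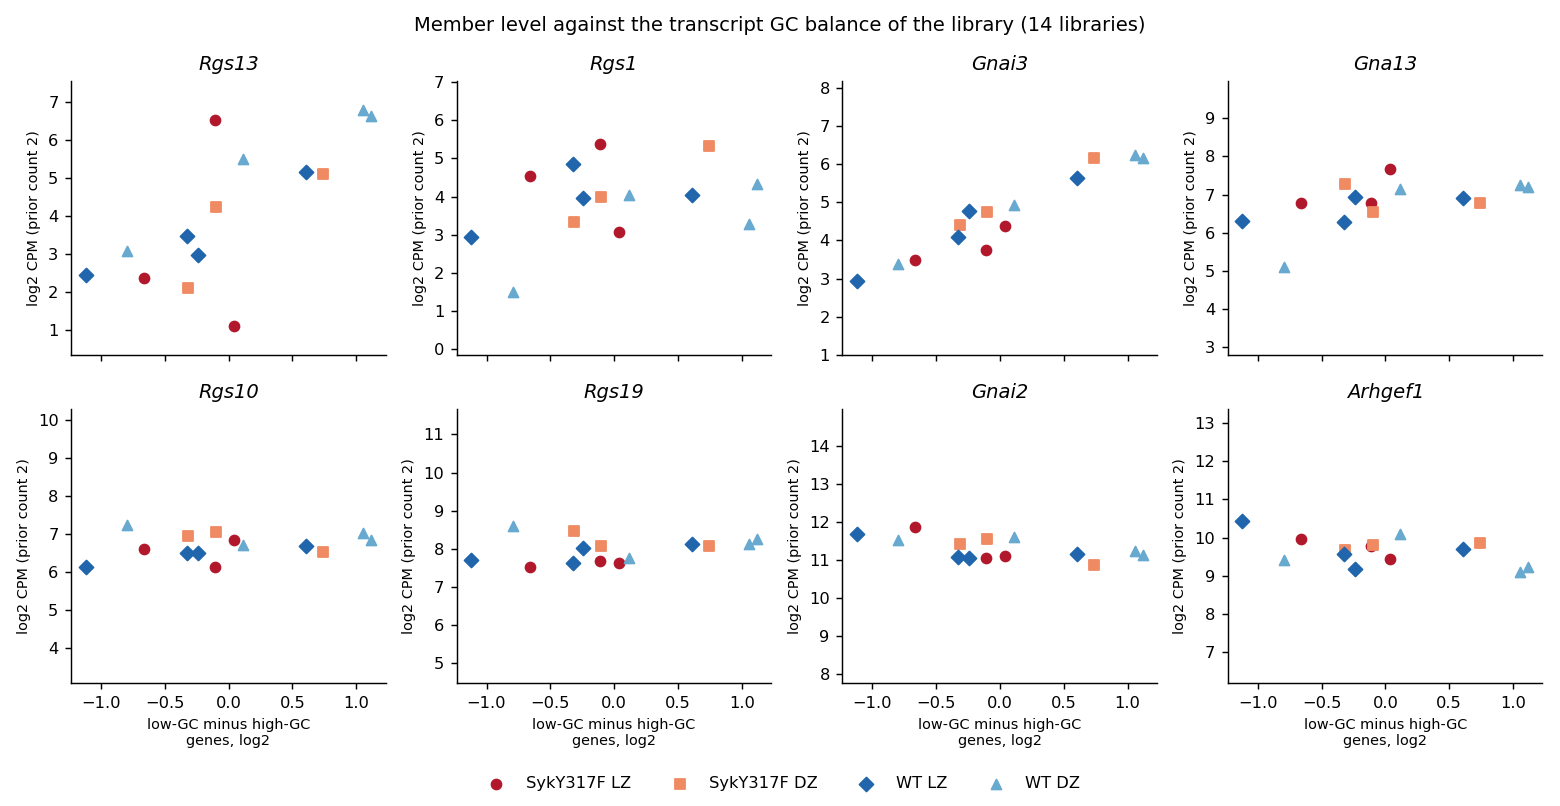
Log2 level of each tested member (log2 CPM, prior count 2, vertical axis, the same span in each panel) against the GC balance of the library (mean log2 deviation of low-GC genes minus that of high-GC genes, horizontal axis) in 14 libraries. Gnai3 rises with the balance over the 14 libraries (r = 0.959), though its SykY317F LZ values stand on 2 or 3 UMIs each. Rgs10 and Rgs19 stay nearly level.

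With each library's trend with GC content removed, a step chosen after seeing the data, 0 members passed in any comparison. The log2 fold change of LZ over DZ averaged over genotypes then was -0.47 ± 0.16 for Rgs19 (adjusted p = 0.136, edgeR) and -0.37 ± 0.17 for Rgs10, much as before. It was -0.93 ± 0.44 for Gnai3 and -0.04 ± 0.60 for Rgs13, against -1.29 and -0.71 without this step. For Rgs1 it was 1.06 ± 0.45 (adjusted p = 0.257, edgeR), against 0.38 without it. How the balance arose was not tested.

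The genes whose log2 levels ran most like those of a member over the 14 libraries, among 3349 tested genes with a mean of at least 50 CPM, were ranked by Pearson's r, as a description. For Rgs10 these were Sar1b (r = 0.926), Smco4 (0.873) and Calm2 (0.862), and for Rgs19 Ilk (0.914), Glrx3 (0.887) and Cd24a (0.875). For Rgs13 they were Atad1 (0.972), Taf1d (0.947) and Rpl22l1 (0.913), and for Rgs1 Klf6 (0.892), Nadk (0.879) and Btla (0.858). For Gnai2 they were Sf3b5 (0.925), Mtmr14 (0.893) and Ltk (0.876), and for Gnai3 Rbm39 (0.955), Ms4a1 (0.930) and Acsl5 (0.930). For Gna13 they were Fam107b (0.934), Rars (0.911) and Psma2 (0.880), and for Arhgef1 Zswim8 (0.903), Arap1 (0.871) and Mgrn1 (0.857). The libraries share depth and GC balance, which enter each of these values.

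Genes around the members in the same pathway were described by lists, all for LZ over DZ averaged over genotypes. In that comparison 1.43% of all tested genes passed in either direction, and 53.7% were on the lower side in LZ. Of 22 receptors that couple to Gαi or Gα13 in B cells, 14 were tested, and 2 rose in LZ. S1pr3, a receptor for sphingosine 1-phosphate, had 83.6, 79.0 and 169 CPM in SykY317F LZ against 47.2, 36.3 and 22.1 CPM in SykY317F DZ. It had 98.7, 112, 97.9 and 110 CPM in WT LZ against 55.7, 54.4, 60.5 and 36.4 CPM in WT DZ. Every LZ library lay above every DZ library, as for 0.263% of all genes, and the log2 fold change was 1.28 ± 0.22 (adjusted p = 0.00564, edgeR). Its adjusted p was 0.0585 with read counts in place of UMIs and 0.0753 without the 2 libraries with the fewest UMIs.

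Ccr6, the receptor for the chemokine CCL20, averaged 207 ± 16.6 CPM in SykY317F LZ and 96.2 ± 35.8 CPM in SykY317F DZ (SD, n = 3 each), and 169 ± 80.3 CPM in WT LZ and 55.6 ± 27.6 CPM in WT DZ (SD, n = 4 each). Its log2 fold change was 1.37 ± 0.29 (adjusted p = 0.0250, edgeR). Ccr6 is also among the naive and memory B cell markers, of which 2 of 9 tested passed on the higher side in LZ. The call of Ccr6 was lost on leaving out any of 8 single libraries, namely SykY317F LZ replicates 1 and 2, SykY317F DZ replicates 1 and 4, WT LZ replicates 1 and 2 and WT DZ replicates 3 and 4, with an adjusted p of up to 0.0861 (edgeR), and without the 2 libraries with the fewest UMIs (0.144). The median of the receptors was -0.01, against -0.03 over all genes. S1pr2, the receptor that activates Gα13 in GC B cells, which is named here after its values were seen, had a log2 fold change of -0.48 ± 0.18 (adjusted p = 0.210, edgeR).

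Of 19 effectors of Gαi in migration and calcium signalling, 16 were tested, and 1 rose in LZ. This was Plcb2, a phospholipase activated by Gβγ, with 75.6 ± 34.4 CPM in SykY317F LZ and 36.6 ± 11.2 CPM in SykY317F DZ (SD, n = 3 each), and 45.2 ± 10.8 CPM in WT LZ and 19.7 ± 5.52 CPM in WT DZ (SD, n = 4 each). Its log2 fold change was 1.08 ± 0.25 (adjusted p = 0.0359, edgeR). The call was lost on leaving out any of 8 single libraries, namely SykY317F LZ replicates 1 and 4, SykY317F DZ replicates 1 and 4, WT LZ replicates 1 and 2 and WT DZ replicates 2 and 3 (adjusted p up to 0.105, edgeR), with read counts (0.0919) and without the 2 libraries with the fewest UMIs (0.144). The median of the effectors was -0.02.

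On the RhoA side of Gα13, 0 of 16 tested genes of 19 passed, with a median of -0.08. Myl12b, a regulatory light chain of myosin, had a log2 fold change of 0.45 ± 0.16 (adjusted p = 0.186, edgeR), Arhgef11, an exchange factor for RhoA, 0.78 ± 0.31 (0.237), and the formin Diap1 0.34 ± 0.18 (0.400). Of 15 receptor kinases, arrestins and G protein modulators, 9 were tested and 0 passed, with 8 on the higher side in LZ and a median of 0.22. The gene on the lower side was Gpsm2 (-1.03 ± 0.38, adjusted p = 0.194, edgeR), and those on the higher side included Grk6, a kinase that desensitizes receptors (0.25 ± 0.15), and Gpsm3 (0.24 ± 0.17).

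Of 17 Gβ and Gγ subunits, 8 were tested and 0 passed, with a median of -0.09, and Gng10 stood at -0.53 ± 0.18 (adjusted p = 0.166, edgeR), Gng2 at -0.47 ± 0.47 and Gngt2 at 0.18 ± 0.19. Of 10 other Gα subunits, 4 were tested and 0 passed, with a median of -0.25. These included Gnaz (-0.49 ± 0.32), Gnas, the stimulatory subunit (-0.23 ± 0.18), and Gna15 (-0.27 ± 0.38). Of 14 other RGS proteins, 2 were tested, Rgs9 (0.28 ± 0.34) and Rgs14 (-0.01 ± 0.22), and neither passed.

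**Figure D4:**
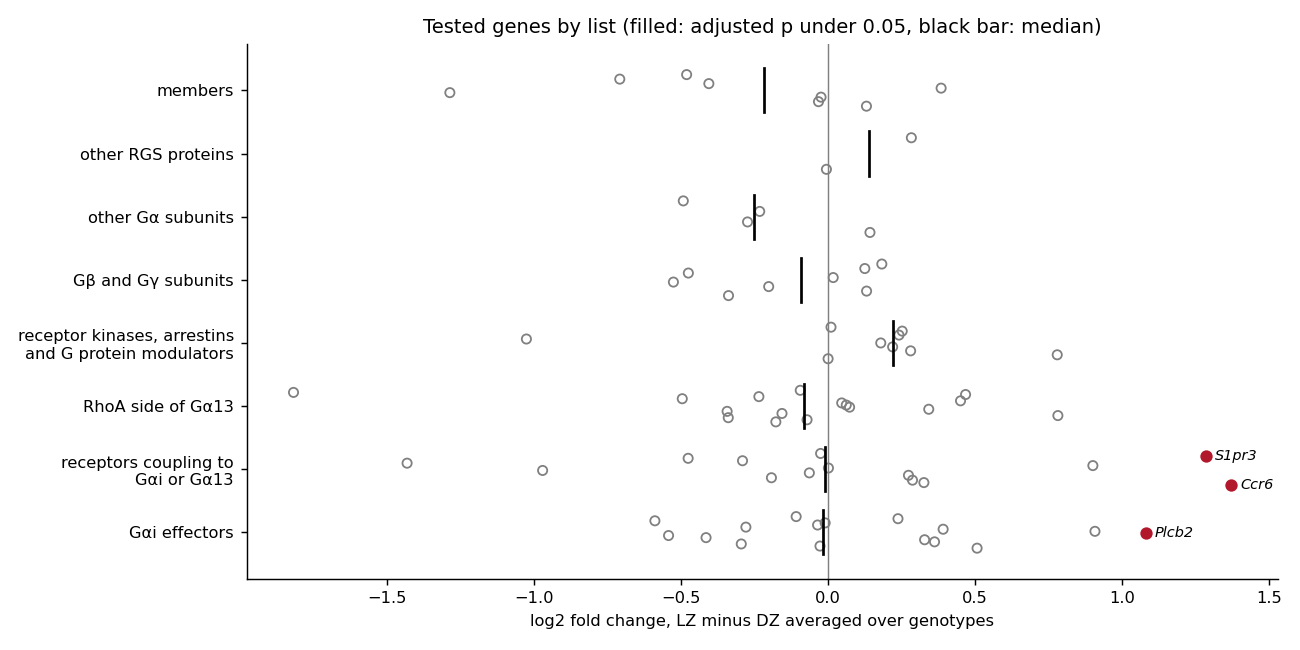
Log2 fold change of LZ minus DZ averaged over genotypes (horizontal axis) for every tested gene of the members and of 7 pathway lists, 1 row per list; open circles did not pass, filled circles passed an adjusted p of 0.05, and black bars are medians. S1pr3, Ccr6 and Plcb2 are the filled circles, all on the higher side in LZ, and the medians of the lists lie between -0.25 and 0.22.

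For SykY317F over WT, no gene of the 7 lists passed in either zone or averaged over zones, and none did in the test of the difference between zone effects. In LZ, 8 of the 14 tested receptors were on the higher side in SykY317F, with a median log2 fold change of 0.09, against -0.06 over all genes. In DZ, 12 of the 14 tested receptors were on the higher side in SykY317F, a side that held 45% of all genes, with a median log2 fold change of 0.80, against -0.04 over all genes. Beside this, the summed level of 9 T cell markers was 392 to 470 CPM in SykY317F DZ and 161 to 258 CPM in WT DZ, with Pdcd1 at 0 in WT DZ, and that of 9 naive and memory B cell markers, which share Ccr6 and Gpr183 with the receptors, was 1396 to 1855 CPM in SykY317F DZ and 1043 to 1434 CPM in WT DZ. Light zone markers were on the higher side in SykY317F DZ for 8 of 9 (median 0.40, summed level 1686 to 2434 CPM in SykY317F DZ and 1356 to 1711 CPM in WT DZ), and myeloid markers for 7 of 8 tested (median 0.59, 431 to 730 CPM in SykY317F DZ and 286 to 563 CPM in WT DZ). GC B cell markers were on the lower side for 9 of 11 tested, with a median of -0.53. None of these markers passed, and the part of these lists in the receptor values was not tested.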

How the data were processed

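Sorted cells were lysed and their mRNA bound to oligo(dT) beads; library construction followed a variant of MARS-seq, which counts transcript ends, per the labels' protocols. Tools in the submitters' processing notes are STAR 2.4.2a, cutadapt, HTSeq, DESeq and DESeq2, and the build is mm10; the setting of the read counter is not given in the sources used here. Analysed were the UMI counts that the authors deposited, whole numbers for 9969 genes. Read counts, deposited by the authors for 11914 genes, served as an alternative; 2 of their rows share a symbol and were left out. The authors also deposited a normalised signal, UMI counts over 1 size factor per library, which was not used, and log2 fold changes and adjusted p-values, used only for a count of members. UMI counting removes PCR copies, which read counts keep.

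Groups followed the genotype and zone labels. filterByExpr left 7999 genes with 99.3% of UMIs. A robust quasi-likelihood model of the 4 groups, with TMM scaling and 7 contrasts, was fitted in edgeR 4.0.16 (R 4.3.3, limma 3.58.1). Adjustment was by Benjamini and Hochberg over all genes tested in each contrast, and an adjusted p under 0.05 counted as passing. CPM are UMIs per 1000000 of the TMM-scaled library, and log2 CPM have a prior count of 2. The steps were also run on simulated counts with known changes, drawn gene by gene with no GC balance between libraries. The outcome of these runs is not reported here. Alternatives were DESeq2 1.42.0 (size factors and Wald test), no filter and a filter of 20 counts in 3 libraries, replicate number as a block, limma voom with quality weights per sample, read counts, leaving out each library or the 2 with the fewest UMIs, and, added after seeing the data, removal of GC trends.

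The members and lists were chosen with earlier results of these data known. Named genes are all 9 members, list genes past the threshold or otherwise up to 3 with the smallest p, and the 3 genes most like each member. Positions are from the GRCm38 annotation and promoters from RefSeq. Transcript GC content is that of the whole of the longest annotated transcript of each gene. The libraries count transcript ends, and the GC content of the captured part was not computed.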

Additional observations from a re-analysis of the deposited data

Results flagged for a closer look

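Groups of 4 libraries were searched for a library far from the others of its group, with the critical gap over range of 0.829 for 4 values, in 16 combinations of a member and a WT zone. About 1 in 20 such groups would stand out by chance, and 2 of 16 did. Gnai2 in WT LZ replicate 1 was at 3266 CPM, above the 3 others at 2115 to 2279 CPM, with a gap over range of 0.857. Gna13 in WT DZ replicate 5 was at 32.0 CPM, below the 3 others at 140 to 151 CPM, with a gap over range of 0.903. These libraries had the lowest balance of low-GC over high-GC genes of their groups, -1.12 in WT LZ replicate 1 and -0.79 in WT DZ replicate 5, and the part of the balance in these levels was not tested.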

How the results depend on the processing

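In 1288 recomputed member values, over 7 comparisons and 23 other settings, 0 passed the threshold. The sign changed in 108. In 102 of these both estimates lay within 1 SE of 0, which was not counted as a reversal, and 6 were reversals. With read counts, the log2 fold change of SykY317F over WT was 0.043 for Rgs19 in LZ and 0.29 for Rgs10 averaged over zones. Without both libraries with the fewest UMIs (SykY317F LZ replicates 2 and 4, which leaves 1 that is assumed to vary like the other groups), the difference of zone effects of Rgs13 was -0.37. Leaving out 1 library at a time it ranged from -0.93 (without SykY317F LZ replicate 2) to 4.22, the LZ over DZ value of Rgs13 in SykY317F from -3.06 to 2.10 and its SykY317F over WT value in LZ from -2.80 to 2.19, both lowest without the same library. The cause was not tested.

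Counts of all genes called varied more. LZ over DZ in SykY317F called 3 genes, but 42 by DESeq2's Wald test, 20 with read counts, 5 with GC trends removed, 0 without both libraries with the fewest UMIs, and 0 to 10 leaving out single libraries (0 without SykY317F LZ replicate 2, SykY317F DZ replicate 1 or SykY317F DZ replicate 4, 10 without SykY317F DZ replicate 2). In WT it called 15, but 97 by DESeq2, 292 by limma voom, 0 with read counts (389 at an unadjusted p under 0.05), 9 without both libraries with the fewest UMIs, 41 with GC trends removed, and 1 (without WT LZ replicate 2) to 26 (without WT LZ replicate 3). Averaged over genotypes it called 114, but 235 by DESeq2, 200 by limma voom, 49 with read counts, 17 without both libraries with the fewest UMIs, and 42 (without SykY317F DZ replicate 1) to 152 (without WT DZ replicate 5). SykY317F over WT called 0, but 2 in DZ by DESeq2, 43 in LZ by DESeq2 and 54 in LZ with read counts, with 0 to 5 in LZ leaving out single libraries. Averaged over zones it called 47 by DESeq2, 7 by limma voom, 10 with read counts, 1 with GC trends removed, and 0 to 5 leaving out single libraries.

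Replicate numbers were also fitted as a block. Deviations of same-numbered LZ and DZ libraries of a genotype correlated from -0.56 to 0.21, with 3 of 6 pairs over 0.1, against 5 of 8 same-numbered pairs across genotypes and 17 of 59 pairs of other numbers. The labels tie no number to a mouse, so whether same-numbered libraries share one is not known, and the fit without the block was kept. With the block 0 members were called in any comparison, and LZ over DZ called 94 genes averaged over genotypes, 14 in WT and 1 in SykY317F. Plcb2 had an adjusted p of 0.0744 with the block (edgeR).

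Rgs2, Rgs13, Rgs1 and Gnai3 had 3 UMIs or fewer in 8, 5, 2 and 3 of 14 libraries. Not all of these libraries were shallow: WT DZ replicate 5, the deepest with 1767898 UMIs, had 1 UMI of Rgs1. SykY317F DZ replicate 1, with 1293407 UMIs, had 3 UMIs of Rgs13. The part of depth in these low counts was not tested.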
